A study of Homo sapiens with 8 samples.

Results

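Serine synthesis and one-carbon metabolism were followed through 8 enzyme genes (PHGDH, PSAT1, SHMT2, MTHFD2, MTHFD1L, ALDH1L2, SHMT1 and MTHFD1) out of 18417 genes measured in an established human astrocytoma line, U373. The 8 were taken as a named set. For each, only probe sets that pair with 1 gene symbol were considered, and of those the probe set that read highest on average was used. The set was chosen by its known role and with its log2 differences between the treatment groups of these same arrays in view. Every difference of these 8 genes is therefore given as a description, without a p-value. The count of the 8 called over all genes is stated below, but nothing is read from it. Total RNA came from 4 groups of 2 arrays each, 8 in all: progesterone at 10 nM together with the antiprogestin RU-486 (mifepristone) at 1 µM, RU-486 alone, progesterone alone, and vehicle, each for 12 h. All groups, vehicle included, had first been kept in medium with hormone-free serum. The sample descriptions of the RU-486 groups give the compound as RU-484, unlike their titles and treatment protocol. All arrays are of 1 cell line. The sample titles call the 2 arrays of each group biological replicates, but whether each array had its own culture is left unstated. The errors therefore measure the spread between these samples, and how much of it is technical is not known.

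Cells make serine from a glycolytic intermediate, 3-phosphoglycerate. PHGDH oxidises it, PSAT1 transaminates the product and PSPH removes the phosphate. Serine hydroxymethyltransferase then passes a carbon from serine to tetrahydrofolate and releases glycine, with SHMT2 doing so in mitochondria and SHMT1 in the cytosol. In mitochondria, MTHFD2 and MTHFD1L oxidise that carbon and release it as formate, and ALDH1L2 can oxidise it to carbon dioxide. The cytosolic enzyme MTHFD1 takes the formate back onto folate for purine, thymidylate and methionine synthesis. PHGDH, PSAT1, SHMT2 and MTHFD2 are known targets of the transcription factor ATF4, which is active when amino acids are short or the endoplasmic reticulum is stressed.

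Promoter windows are printed because 5 of these genes were higher together in RU-486 arrays and 2 cytosolic ones were not, so that the start regions of both kinds can be seen side by side. The windows come from RefSeq on GRCh38.p14 and run from 250 bases before to 50 bases after an annotated start, on the gene's strand, 5′ to 3′. RefSeq windows were matched for 6 of the 8 genes, and SHMT2 and ALDH1L2 had none. PHGDH lies at chr1:119711684-119711983 on the plus strand, PSAT1 at chr9:78296875-78297174 plus, MTHFD2 at chr2:74198365-74198664 plus and MTHFD1L at chr6:150866236-150866535 plus, the first of its 4 windows. SHMT1 lies at chr17:18363501-18363800 on the minus strand and MTHFD1 at chr14:64388103-64388402 on the plus strand. Capitals mark matches to 3 motifs, searched on both strands: TGATGNAA, the core bound by ATF4 with C/EBP proteins, CACGTG, an E box bound by MYC and related factors, and CCAAT, which on the other strand reads ATTGG.
PHGDH: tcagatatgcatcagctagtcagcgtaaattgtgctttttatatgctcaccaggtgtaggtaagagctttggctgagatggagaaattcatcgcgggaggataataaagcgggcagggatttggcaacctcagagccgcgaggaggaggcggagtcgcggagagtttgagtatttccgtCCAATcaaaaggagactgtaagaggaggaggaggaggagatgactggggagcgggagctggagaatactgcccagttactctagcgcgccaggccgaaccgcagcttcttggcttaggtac
PSAT1: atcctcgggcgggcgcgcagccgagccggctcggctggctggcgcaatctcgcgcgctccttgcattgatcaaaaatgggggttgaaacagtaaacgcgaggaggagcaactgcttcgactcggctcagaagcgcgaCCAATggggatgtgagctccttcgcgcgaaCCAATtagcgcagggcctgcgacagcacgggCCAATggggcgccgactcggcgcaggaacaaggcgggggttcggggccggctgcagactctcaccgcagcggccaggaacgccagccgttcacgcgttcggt
MTHFD2: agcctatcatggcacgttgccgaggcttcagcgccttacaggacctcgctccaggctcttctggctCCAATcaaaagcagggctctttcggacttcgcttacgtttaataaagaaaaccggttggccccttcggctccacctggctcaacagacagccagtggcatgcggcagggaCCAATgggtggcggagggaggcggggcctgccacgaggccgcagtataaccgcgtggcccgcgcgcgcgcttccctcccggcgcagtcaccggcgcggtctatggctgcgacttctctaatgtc
MTHFD1L: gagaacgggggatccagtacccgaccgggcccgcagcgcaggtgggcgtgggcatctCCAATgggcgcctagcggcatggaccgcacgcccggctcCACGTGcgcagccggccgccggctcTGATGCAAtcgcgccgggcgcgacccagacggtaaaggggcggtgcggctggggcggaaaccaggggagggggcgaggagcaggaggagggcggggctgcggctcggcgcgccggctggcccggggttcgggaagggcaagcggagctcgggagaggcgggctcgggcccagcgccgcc
SHMT1: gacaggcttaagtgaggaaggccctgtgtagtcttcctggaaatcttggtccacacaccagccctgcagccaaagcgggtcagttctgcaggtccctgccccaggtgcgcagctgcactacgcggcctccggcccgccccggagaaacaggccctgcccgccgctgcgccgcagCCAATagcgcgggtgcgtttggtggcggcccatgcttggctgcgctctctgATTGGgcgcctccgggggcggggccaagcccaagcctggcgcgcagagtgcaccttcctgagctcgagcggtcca
MTHFD1: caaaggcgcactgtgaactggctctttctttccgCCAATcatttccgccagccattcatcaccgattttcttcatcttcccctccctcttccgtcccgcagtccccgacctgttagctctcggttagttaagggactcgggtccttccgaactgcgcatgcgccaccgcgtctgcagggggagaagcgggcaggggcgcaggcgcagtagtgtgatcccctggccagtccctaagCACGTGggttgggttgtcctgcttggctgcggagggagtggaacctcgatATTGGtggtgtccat
The ATF4 core was matched in MTHFD1L alone among the 6, as TGATGCAA at position -129 from the start. It fell in 3 of the 4 MTHFD1L windows, but those 3 overlap and hold the same single site. From their different starts it lay at -129, -90 and 24, the last downstream of its start. Of all 35116 RefSeq windows of this length, 3.62% hold that core. CACGTG was matched in MTHFD1L and MTHFD1, against 7.26% of all windows. CCAAT was matched in all 6, on 1 strand or the other, against 34.6% of all windows. The CCAAT matches number 3 in PSAT1, 2 each in MTHFD2, SHMT1 and MTHFD1, and 1 each in PHGDH and MTHFD1L. These are matches of letters within 300 bases and do not show binding.

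All values below are log2 expression values, so that a difference of 1 is a doubling, and an error after ± on a difference is its standard error (SE) from a fit over all 8 arrays. Levels of different genes come from different probes and are not set against each other.

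The serine synthesis pair, PHGDH and PSAT1, was higher in every array with RU-486 than in any array without it. PHGDH, the first enzyme of the route, read 11.33 and 11.26 in progesterone plus RU-486 and 11.16 and 11.35 in RU-486, against 10.51 and 10.18 in progesterone and 10.66 and 10.44 in vehicle. The 4 arrays with the antiprogestin lay together, and the lowest of the 8 was a progesterone array. In a bulk sample, less RNA per cell and fewer cells with the transcript cannot be told apart. Averaged over both settings, PHGDH was 0.83 ± 0.10 higher with RU-486 than without it, or 1.78-fold. PSAT1, the transaminase of the next step, read 10.76 and 10.83 in progesterone plus RU-486 and 10.58 and 10.85 in RU-486, against 9.96 and 9.71 in progesterone and 10.11 and 9.95 in vehicle. Its average difference was 0.82 ± 0.09, or 1.77-fold, and the array order resembled that of PHGDH. From the highest, the 2 genes stood at ranks 8 and 9 among the 18417 differences.

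The mitochondrial enzymes SHMT2, MTHFD2 and MTHFD1L were also higher in each RU-486 array, by less. SHMT2, which makes glycine and the folate-bound carbon from serine, read 12.03 and 11.92 in progesterone plus RU-486 and 11.86 and 11.96 in RU-486, against 11.59 and 11.36 in progesterone and 11.61 and 11.48 in vehicle. Its average difference was 0.43 ± 0.07, or 1.35-fold. No array with RU-486 overlapped one without. MTHFD2, the mitochondrial dehydrogenase and cyclohydrolase, read 12.07 and 12.00 in progesterone plus RU-486 and 11.89 and 12.14 in RU-486, against 11.42 and 11.31 in progesterone and 11.58 and 11.42 in vehicle. Its average difference was 0.59 ± 0.08, or 1.51-fold, the third largest of the 8 genes and rank 19 among all genes. A separate one-symbol probe set for MTHFD2, not used above, differed by 0.67, with 11.62 and 11.48 in progesterone plus RU-486 and 11.31 and 11.40 in RU-486, against 10.66 and 10.74 in progesterone and 10.88 and 10.84 in vehicle. Both MTHFD2 probe sets thus separated the same arrays.

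MTHFD1L, the synthetase that releases formate from mitochondria, read 10.30 and 10.13 in progesterone plus RU-486 and 9.99 and 10.13 in RU-486, against 9.89 and 9.76 in progesterone and 9.85 and 9.78 in vehicle. Its average difference was 0.32 ± 0.07, or 1.25-fold, with no overlap between arrays with and without RU-486. Another 4 probe sets that name MTHFD1L, and 1 that names PHGDH, pair with several symbols and were not used. ALDH1L2, the mitochondrial 10-formyltetrahydrofolate dehydrogenase, read 4.36 and 4.37 in progesterone plus RU-486 and 4.35 and 4.50 in RU-486, against 4.43 and 4.44 in progesterone and 4.37 and 4.25 in vehicle. These arrays overlapped, and the average difference was 0.02 ± 0.06. The ALDH1L2 probe set averaged 4.38 ± 0.07 (SD, n = 8), and 36.7% of 341 olfactory receptor genes, which serve here as a guide to background, read lower (their median was 4.64). ALDH1L2 thus read within the background range, whereas the other 7 enzymes lay above every olfactory receptor gene.

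The cytosolic enzymes SHMT1 and MTHFD1 showed overlapping arrays. SHMT1, the cytosolic counterpart of SHMT2, read 9.96 and 9.83 in progesterone plus RU-486 and 9.76 and 9.68 in RU-486, against 9.63 and 9.70 in progesterone and 9.86 and 9.67 in vehicle. Its average difference was 0.09 ± 0.07, and a vehicle array stood above both arrays of RU-486 alone. MTHFD1, which carries all 3 cytosolic folate activities in 1 protein, read 10.94 and 10.78 in progesterone plus RU-486 and 10.75 and 10.79 in RU-486, against 10.71 and 10.70 in progesterone and 10.85 and 10.72 in vehicle. Its average difference was 0.07 ± 0.06, and a vehicle array stood above both arrays of RU-486 alone here too.

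**Figure D1:**
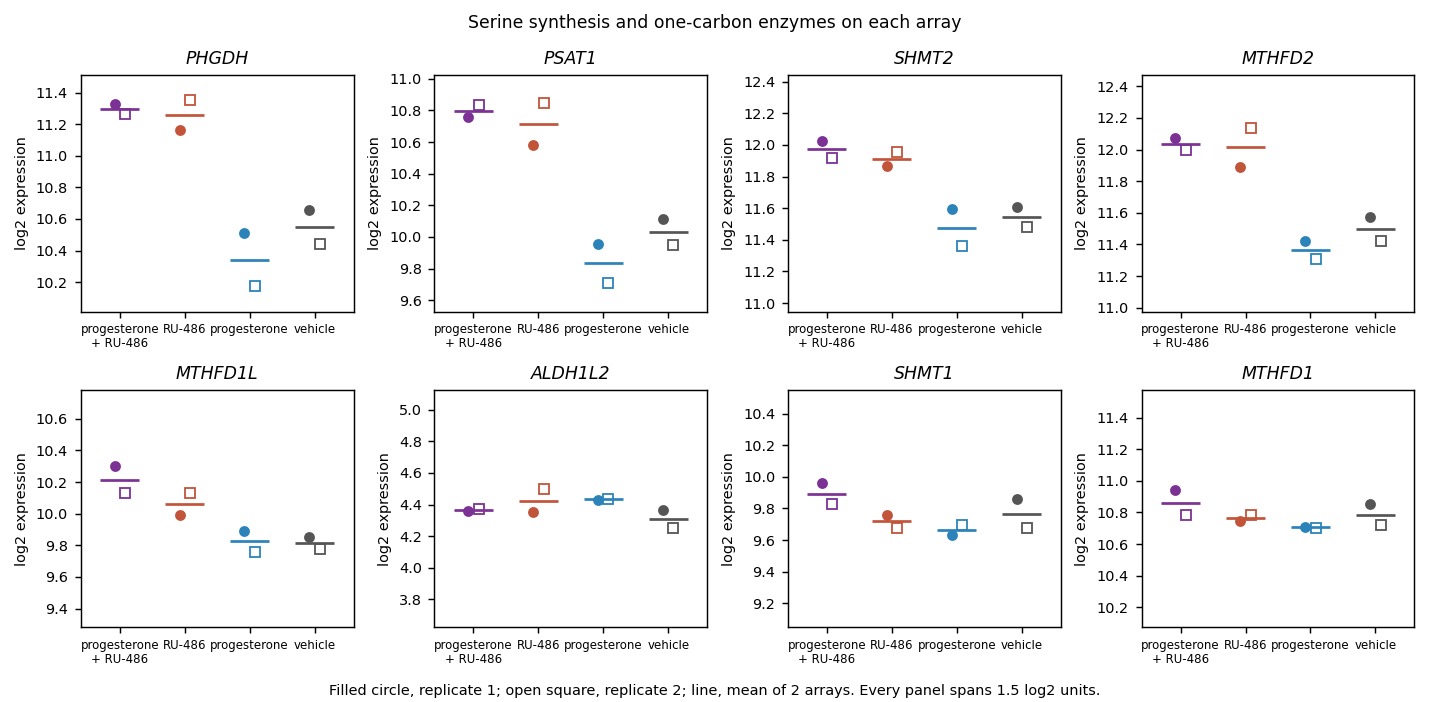
Log2 expression of the 8 enzyme genes, 1 panel a gene, with 1 point for each array and a bar at the mean of the 2 arrays of each treatment group. PHGDH, PSAT1, SHMT2, MTHFD2 and MTHFD1L lie higher in all 4 arrays with RU-486 than in the 4 without, while SHMT1, MTHFD1 and ALDH1L2 overlap.

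Over the 8 genes, the 4 arrays with RU-486 did not overlap the 4 without, on the higher side, for 5 genes, and on the lower side for 0. Across all 18417 genes the same was so for 4.51% on the higher side and 1.09% on the lower. The median difference was 0.37 over the 8 genes and 0.03 over all genes, and 8 of 8 differences were above 0, against 62.5% of all genes. At an adjusted p under 0.05 (limma, Benjamini-Hochberg over all genes), 6 of all genes (0.0326%) were called, and 0 of the 8 were among them. Over all 18417 genes, 2029 had an unadjusted p under 0.05, 1202 of them higher and 827 lower. Because this comparison was known when the set was chosen, nothing is read from these shares. The count of 6 rested on single arrays: it became 0 without either vehicle, either combination or the second RU-486 array, 1 without the first RU-486 array and 998 without the first progesterone array.

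The same 5 genes had the largest differences for RU-486 alone and for RU-486 on top of progesterone. Both comparisons were in view when the set was chosen, so the likeness of the values is no independent support and nothing is read from the counts below. For RU-486 against vehicle, the differences were 0.71 ± 0.14 for PHGDH, 0.68 ± 0.13 for PSAT1, 0.51 ± 0.11 for MTHFD2, 0.37 ± 0.11 for SHMT2 and 0.25 ± 0.10 for MTHFD1L. The remaining 3 were 0.12 for ALDH1L2, -0.02 for MTHFD1 and -0.05 for SHMT1. Arrays did not overlap, on the higher side, for 5 of the 8 genes, against 24.0% of all genes (0 of 8 and 15.7% on the lower side), and the median was 0.31, against 0.01 over all genes. For progesterone plus RU-486 against progesterone, they were 0.95 ± 0.14 for PHGDH, 0.96 ± 0.13 for PSAT1, 0.67 ± 0.11 for MTHFD2, 0.49 ± 0.11 for SHMT2 and 0.39 ± 0.10 for MTHFD1L. SHMT1 differed by 0.23 ± 0.10, MTHFD1 by 0.16 ± 0.09 and ALDH1L2 by -0.07 ± 0.09. Here 7 genes did not overlap on the higher side, against 28.1% of all genes, and ALDH1L2 alone did not on the lower side, against 12.6%. The median was 0.44, against 0.03 over all genes. limma called 0 of the 18417 genes (0%) in each of these comparisons, with 571 at an unadjusted p under 0.05 in the first and 2686 in the second.

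**Figure D2:**
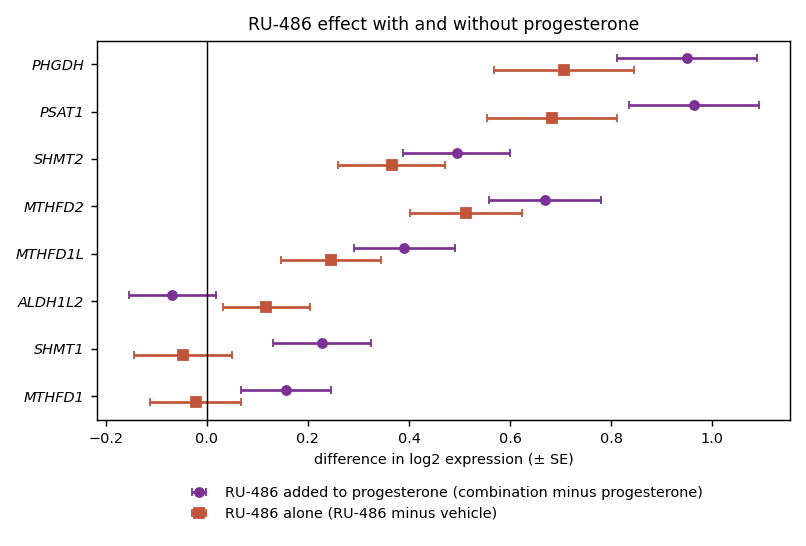
Log2 difference of each of the 8 enzyme genes for progesterone plus RU-486 against progesterone and for RU-486 against vehicle, with bars of 1 SE from the fit over 8 arrays. PHGDH and PSAT1 stand highest in both, at 0.95 and 0.96 in the presence of progesterone and at 0.71 and 0.68 in its absence.

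The difference between those 2 effects, the interaction of both steroids, was above 0 for 7 of the 8 genes, against 52.4% of all genes. Among 96 further genes of related pathways, described below, 76.0% were above 0. It was 0.28 ± 0.18 for PSAT1, 0.28 ± 0.14 for SHMT1, 0.24 ± 0.20 for PHGDH and -0.19 for ALDH1L2, with a median of 0.17 over the 8 genes and 0.01 over all genes. limma called 0 of the 18417 genes (0%) for the interaction, with 972 at an unadjusted p under 0.05.

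Progesterone against vehicle gave smaller differences, most of them below 0. PHGDH differed by -0.21 ± 0.14, PSAT1 by -0.20 ± 0.13 and MTHFD2 by -0.13 ± 0.11. SHMT1 differed by -0.10, MTHFD1 by -0.08, SHMT2 by -0.07, MTHFD1L by 0.01 and ALDH1L2 by 0.13. MTHFD2 and MTHFD1 did not overlap on the lower side, 2 of 8 against 15.8% of all genes, and ALDH1L2 did not on the higher side, 1 of 8 against 16.3%. The median was -0.09, against 0.004 over all genes, and limma called 0 of 18417 genes (0%), with 1129 at an unadjusted p under 0.05. The progesterone replicates were the least alike: across genes the SD of their difference was 0.35, against 0.17 in progesterone plus RU-486, 0.16 in RU-486 and 0.18 in vehicle. PHGDH differed by 0.34 between the 2 progesterone arrays, more than its difference from vehicle.

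With RU-486 present in both groups, differences were small as well. Progesterone plus RU-486 against RU-486 gave differences between -0.06 for ALDH1L2 and 0.17 for SHMT1, with 0.15 for MTHFD1L, and a median of 0.07 against 0.04 over all genes. SHMT1 and MTHFD1L did not overlap on the higher side, 2 of 8 against 33.3% of all genes, and 0 of 8 did on the lower side, against 17.1%. Against vehicle, the combination gave 0.77 for PSAT1, 0.74 for PHGDH, 0.53 for MTHFD2, 0.43 for SHMT2 and 0.40 for MTHFD1L. SHMT1 differed by 0.13, MTHFD1 by 0.08 and ALDH1L2 by 0.06. The median was 0.41, against 0.07 over all genes, and 5 of 8 did not overlap on the higher side, against 42.7% of all genes (0 of 8 and 18.8% on the lower side). limma called 0 of 18417 genes (0%) in both comparisons, with 874 at an unadjusted p under 0.05 for the combination against RU-486 and 2432 against vehicle.

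Pairs of enzymes with the same chemistry in different compartments can be set side by side as a gap within each array, where only the change in the gap between arrays is read. The gap of mitochondrial SHMT2 over cytosolic SHMT1 was 2.07 and 2.09 in progesterone plus RU-486 and 2.10 and 2.28 in RU-486, against 1.96 and 1.67 in progesterone and 1.75 and 1.81 in vehicle. It was 0.34 ± 0.09 wider with RU-486. For MTHFD2 over MTHFD1 the gap was 1.13 and 1.21 in progesterone plus RU-486 and 1.14 and 1.35 in RU-486, against 0.71 and 0.61 in progesterone and 0.72 and 0.70 in vehicle. This was the largest change of the 3 compartment gaps, 0.52 ± 0.06. For MTHFD1L over MTHFD1 it was -0.64 and -0.66 in progesterone plus RU-486 and -0.75 and -0.66 in RU-486, against -0.82 and -0.94 in progesterone and -1.002 and -0.94 in vehicle. That gap moved by 0.25 ± 0.04. In all 3 pairs the arrays with RU-486 lay above those without. The gap between PHGDH and SHMT1, which are both cytosolic and differ in chemistry, changed by more, 0.74 ± 0.12. Each change in a gap follows from the average differences of its genes given above and adds no separate evidence. A part of the compartment in these differences was not tested. The genes of each gap were chosen with these values in view, and a gap does not show that either partner stayed the same.

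**Figure D3:**
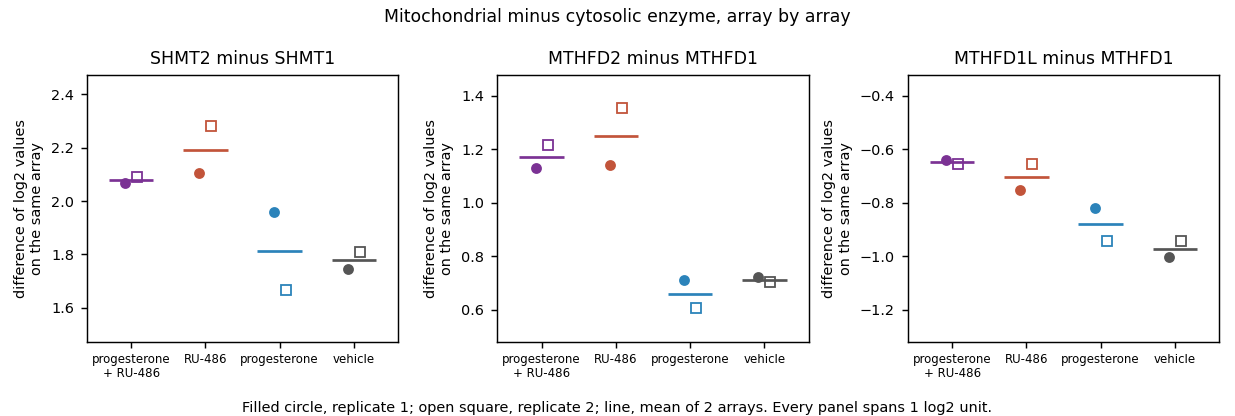
Gap in log2 expression between the mitochondrial and the cytosolic enzyme of 3 pairs, 1 point for each array, by treatment group. The SHMT2 over SHMT1 gap lies between 2.07 and 2.28 in the 4 arrays with RU-486 and between 1.67 and 1.96 in those without, and the other pairs separate likewise.

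The last enzyme of serine synthesis and relatives of MTHFD2 and ALDH1L2 were not in the set. PSPH, the phosphatase of that last step, read 10.80 and 10.88 in progesterone plus RU-486 and 10.83 and 10.98 in RU-486, against 10.71 and 10.38 in progesterone and 10.68 and 10.60 in vehicle. Its arrays with RU-486 did not overlap those without, but the average difference of 0.28 ± 0.09 was not called (limma adjusted p = 0.424). A further PSPH probe set differed by 0.30. MTHFD2L, a mitochondrial relative of MTHFD2, differed by 0.12 ± 0.09 (limma adjusted p = 0.638). ALDH1L1, the cytosolic relative of ALDH1L2, differed by -0.02 ± 0.09 (limma adjusted p = 0.944). ALDH1L1 averaged 6.19, and 94.4% of the olfactory receptor genes read lower, so it lay at the upper end of the background range.

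Of 106 further genes of serine, folate, glycine, methionine, purine, transport, lipid and glutathione metabolism, 96 were measured. With RU-486, 68 of those (70.8%) were above 0, against 62.5% of all genes. limma called 1 of the 96, CHAC1, higher and 0 lower, against 0.0326% of all genes. At an unadjusted p under 0.05, 18 of the 96 were higher and 1 lower, against 1202 higher and 827 lower of all 18417 genes. Without the first progesterone array, limma called more of the 96 and more of all genes. The median of the 96 was 0.07, against 0.03 over all genes. Folate cycle and transport genes other than the enzymes above had a median of 0.09 over 16 measured, none above 0.14, and 0 at an unadjusted p under 0.05 or called by limma. Glycolysis genes down to and past 3-phosphoglycerate had a median of 0.04 over 17, again with 0 called by limma and 0 at an unadjusted p under 0.05. The methionine cycle and transsulfuration genes had a median of 0.06 over 20, with 0 called by limma and 5 higher and 1 lower at an unadjusted p under 0.05. Among them NNMT, which uses the methyl donor S-adenosylmethionine, differed by 0.36 ± 0.07 (limma adjusted p = 0.256), CTH, which makes cysteine, by 0.26 ± 0.07 (limma adjusted p = 0.412) and methionine synthase, MTR, by -0.35 ± 0.12 (limma adjusted p = 0.427). Purine and thymidylate genes had a median of 0.05 over 14, the glycine cleavage system 0.08 over 6 and genes that build serine into lipids 0.06 over 10, with 0 called by limma and 3, 1 and 1 at an unadjusted p under 0.05.

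Among 15 serine and glycine carriers, with a median of 0.03, SLC6A9, SLC1A4 and SLC1A5 stood apart. SLC6A9, the glycine transporter GlyT1, read 9.70 and 9.63 in progesterone plus RU-486 and 9.32 and 9.57 in RU-486, against 8.68 and 8.24 in progesterone and 8.54 and 8.40 in vehicle. The arrays with RU-486 stood clear of the others, and the difference of 1.09 ± 0.11 missed the threshold (limma adjusted p = 0.0557). SLC1A4, a carrier of alanine, serine and cysteine, read 9.99 and 9.79 in progesterone plus RU-486 and 9.65 and 9.87 in RU-486, against 9.12 and 8.96 in progesterone and 9.15 and 9.09 in vehicle. It differed by 0.74 ± 0.08 (limma adjusted p = 0.073). SLC1A5, a related carrier that favours glutamine, differed by 0.43 ± 0.09 (limma adjusted p = 0.283), and its further probe set by 0.22. These 3 were the carriers with an unadjusted p under 0.05, all higher, as were 1202 of all 18417 genes, and limma called 0 of 15.

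The 8 genes of glutathione synthesis and turnover had a median of 0.19. CHAC1, which breaks glutathione down and is itself a stress response gene, rose, with 8.83 and 8.78 in progesterone plus RU-486 and 8.56 and 8.71 in RU-486, against 7.77 and 7.58 in progesterone and 7.86 and 7.81 in vehicle. Its difference was 0.96 ± 0.07 (limma adjusted p = 0.0236). GCLC, a subunit of the first enzyme of glutathione synthesis, differed by 0.26 (limma adjusted p = 0.392).

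Regulators of serine synthesis and genes known to answer to ATF4 had a median of 0.14 over 16 measured, against 0.03 over all genes. Of the 16, 13 were above 0 (62.5% of all genes), 7 were higher at an unadjusted p under 0.05 (1202 of all 18417) and 1 was called (0.0326% of all genes). The called gene, ASNS, asparagine synthetase and a classical ATF4 target, rose, with 9.84 and 9.87 in progesterone plus RU-486 and 9.65 and 10.01 in RU-486, against 8.62 and 8.52 in progesterone and 8.81 and 8.85 in vehicle. It had the highest difference of all 18417 genes, 1.14 ± 0.09 (limma adjusted p = 0.0236). ATF4 itself read 11.09 and 10.95 in progesterone plus RU-486 and 10.93 and 10.96 in RU-486, against 10.41 and 10.45 in progesterone and 10.58 and 10.54 in vehicle. Its arrays with RU-486 lay above all others, by 0.49 ± 0.06 on average (limma adjusted p = 0.0794). A lower-reading ATF4 probe set differed by 0.16, and by 0.02 for RU-486 against vehicle, so the 2 ATF4 probe sets disagree in size. TRIB3, a pseudokinase induced under stress, differed by 0.78 ± 0.11 (limma adjusted p = 0.136) and DDIT3, the stress factor CHOP, by 0.44 ± 0.07 (limma adjusted p = 0.172). DDIT3 averaged 9.05 in progesterone plus RU-486 against 8.36 in progesterone, but 8.91 in RU-486 against 8.72 in vehicle. Its average difference thus came mostly from the arrays with progesterone. Of the 8 arrays, leaving out either vehicle, either progesterone plus RU-486 or the second RU-486 array ended both calls, and leaving out the first RU-486 array ended that of CHAC1. The differences stayed between 1.05 and 1.23 for ASNS and between 0.92 and 1.01 for CHAC1.

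**Figure D4:**
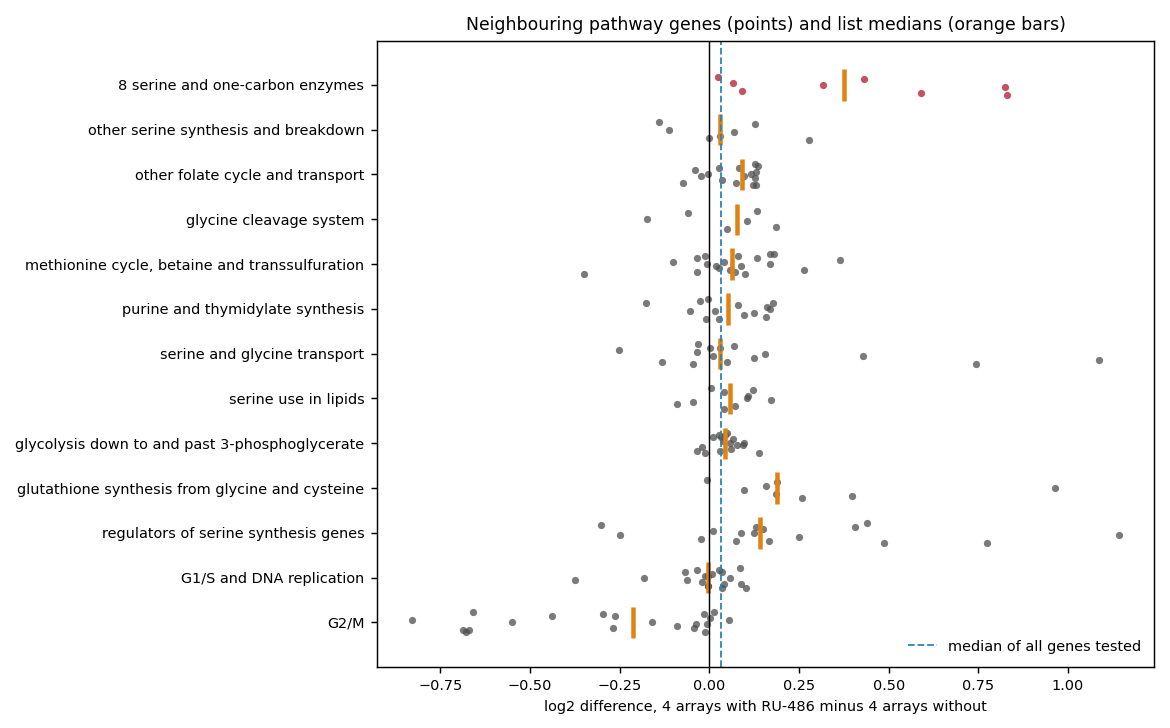
Average RU-486 difference (log2, arrays with RU-486 minus arrays without) of each measured gene in the enzyme set, in the lists of related pathways and in the cell cycle lists, with a bar at each list's median. The enzymes, chosen with these differences in view, have a median of 0.37. The transport, glutathione and regulator lists each hold a gene near 1 (SLC6A9 at 1.09, CHAC1 at 0.96 and ASNS at 1.14). The regulator list also holds genes known to answer to ATF4, and ASNS is one of these, not a regulator. The G2/M list has a median of -0.21.

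Averaged over both settings, G2/M genes were lower in the arrays with RU-486, with some overlap, and G1/S genes were not. The mean of 20 G2/M genes was 10.31 and 10.30 in progesterone plus RU-486 and 10.42 and 10.49 in RU-486, against 10.44 and 10.91 in progesterone and 10.57 and 10.73 in vehicle, with 17 of 20 below 0 and a median of -0.21. DLGAP5, a spindle protein, differed by -0.83 ± 0.18 (limma adjusted p = 0.333). It read 8.55 and 8.77 in progesterone plus RU-486 and 9.23 and 9.42 in RU-486, against 9.49 and 10.35 in progesterone and 9.58 and 9.87 in vehicle. limma called 0 of the 20, with 7 lower at an unadjusted p under 0.05, against 827 lower of all 18417 genes. For RU-486 against vehicle the G2/M median was -0.16, with 20 of 20 below 0. Arrays did not overlap on the lower side for 13, against 15.7% of all genes. For progesterone plus RU-486 against progesterone the G2/M median was -0.20, with 14 of 20 below 0 and 7 not overlapping on the lower side, against 12.6%. Genes of G1/S and DNA replication had a median of -0.004 over 19, with 9 above 0 and 10 below. That average joins opposite directions. For RU-486 against vehicle the G1/S median was -0.06, with 18 of 19 below 0. Here 11 did not overlap on the lower side and 1 on the higher, against 15.7% and 24.0% of all genes. For progesterone plus RU-486 against progesterone the median was 0.06, with 14 of 19 above 0. There 6 did not overlap on the higher side and 1 on the lower, against 28.1% and 12.6%. The part of the cell cycle in the enzyme differences was not tested.

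The genes whose array pattern came nearest to the enzymes were found by the root mean square distance over the 8 arrays, each gene's own mean removed. Against the mean of the 8 enzymes, where the median distance of 18409 other genes was 0.22, the nearest was SLC3A2 at 0.03, the heavy chain of several amino acid exchangers. Next came SARS1 and WARS1, the tRNA synthetases for serine and tryptophan, and NPAS2, a clock transcription factor, each at 0.04. LONP1, a mitochondrial protease, and KCNE4, a potassium channel subunit, followed at 0.05. Against PHGDH alone, where the median distance was 0.43, the nearest were TRIB3 at 0.06, PCK2, the mitochondrial phosphoenolpyruvate carboxykinase, at 0.09, and SLC1A4 and CHAC1 at 0.10. Within the set, PSAT1 lay 0.05 from PHGDH, MTHFD2 0.14, SHMT2 0.21 and MTHFD1L 0.28, while SHMT1, MTHFD1 and ALDH1L2 lay at 0.39, 0.40 and 0.43, close to the median of all genes. The distances rest on 8 arrays that share their treatments, and they depend on the size of a gene's differences as well as their order.

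**Figure D5:**
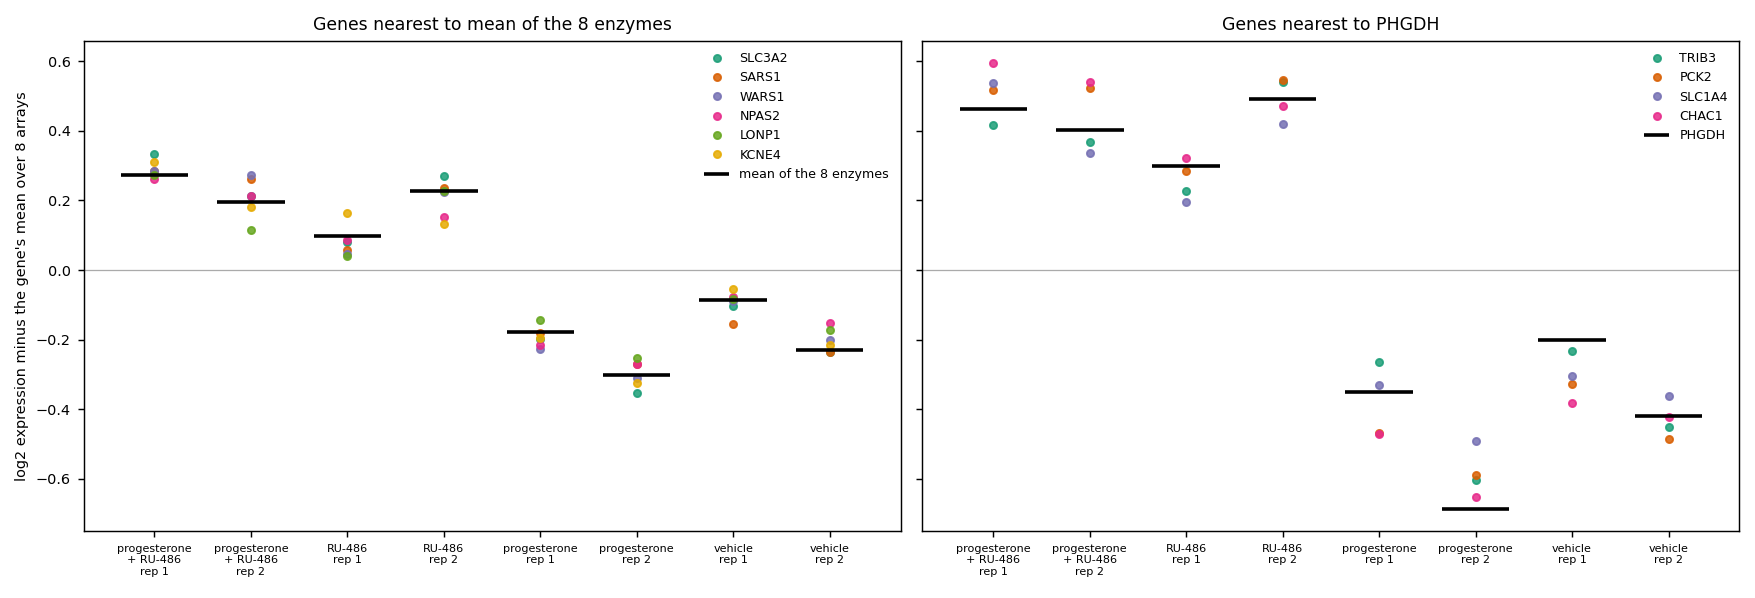
Log2 expression minus each gene's own mean over 8 arrays, for the 6 genes nearest to the mean of the 8 enzymes and the 4 genes nearest to PHGDH, with black bars for the profile they were set against. The named genes follow the bars from array to array, with root mean square distances of 0.03 to 0.05 from the mean of the 8 enzymes and 0.06 to 0.10 from PHGDH.

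The labelled cell type was read from marker genes. Vimentin (VIM) averaged 13.4, CD44 13.1, SOX2 12.0, S100B 9.59 and GFAP 7.54, while AQP4, the astrocyte water channel, averaged 4.19 and stood with 2 other of the 10 astrocyte markers below 6.22, the 95th percentile of the olfactory receptor genes. Below that level were 6 of 8 microglial, 4 of 6 endothelial, 3 of 6 oligodendrocyte, 3 of 7 neuronal and 2 of 5 epithelial markers. Each of those lists also held markers above it. Their highest averaged 10.6 for CD68 (microglial), 9.71 for MAP2 (neuronal), 9.62 for KRT18 (epithelial), 8.57 for CDH5 (endothelial) and 7.67 for SOX10 (oligodendrocyte).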

How the data were processed

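There were 8 whole-transcript Affymetrix arrays (Human Gene ST), 2 a group, and groups were taken from the sample titles. The authors deposited 1 log2 value for each of 33297 probe sets and array. The submitters' processing notes name limma, oligo and RMA and give no version. RMA equalises arrays and compresses differences of dim genes, and array medians ran from 6.93 to 7.02. Precision is limited by the number of arrays. Of the probe sets, 19460 pair with 1 symbol, 1754 with several and 12083 were unlisted. Of the first, 19429 matched RefSeq and 0 symbols were updated. For 769 genes with several probe sets the highest mean was kept, which left 18417 genes, with no filter on dim ones.

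limma 3.58.1 (lmFit, eBayes; R 4.3.3) fitted contrasts of group means over all 8 arrays, with 4 residual degrees of freedom, Benjamini-Hochberg adjustment over all genes in each of 9 contrasts, and calls at an adjusted p under 0.05. The average RU-486 effect sets 4 arrays with RU-486 against 4 without. The fit was tested on simulated data. The 8 enzymes and all gene lists were chosen with earlier results of these data known. Besides the enzymes, the text names ATF4, PSPH, MTHFD2L, ALDH1L1, called genes, genes with the smallest p of each list (up to 4) and the nearest 6 or 4 genes by pattern. Single markers were named after their values were seen. Of the listed genes, those not measured by a one-symbol probe set are not analysed here. Alternatives were a replicate block, leaving out each array, quantile normalization, median centring and array weights. Others were another probe set rule, all probe sets, no dim genes, and a trended robust prior.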

Additional observations from a re-analysis of the deposited data

How the results depend on the processing

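The medians over the 8 enzymes moved by less than the spread between replicates under every alternative that gave one. For the average RU-486 effect the median of 0.37 ran from 0.33 to 0.42 when single arrays were left out and from 0.36 to 0.39 otherwise. For RU-486 against vehicle it ran from 0.25 to 0.36, for progesterone plus RU-486 against progesterone from 0.35 to 0.53 and for progesterone against vehicle from -0.17 to -0.01. For the combination against RU-486 it ran from -0.02 to 0.13, changing sign without the first RU-486 array. Leaving out dim genes gave no median, since ALDH1L2 then drops out. Of 381 values of single enzymes under 16 settings, 12 moved by over 1 SD, spread over PHGDH, SHMT1, SHMT2, MTHFD1, MTHFD2 and ALDH1L2. The 4 that changed sign were all differences of SHMT1, MTHFD1 or ALDH1L2.

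Counts of called genes depended strongly on single arrays and settings. For the average RU-486 effect the 6 calls became 0 with all probe sets, 24 without dim genes and 43 with a trended robust prior, and ran from 0 to 998 with single arrays left out, the highest without the first progesterone array. Progesterone plus RU-486 against progesterone had 6 calls without dim genes, 17 with the trended robust prior, and 0 to 1090 with single arrays left out, again highest without the first progesterone array. Progesterone against vehicle had 0 to 1228, the highest without the second progesterone array. RU-486 against vehicle had 3 calls with array weights, RU-486 against progesterone had 1 with the trended robust prior, and the combination against vehicle had 7 with array weights and 1 with the replicate block. The 1 call among the 96 other pathway genes became 3 with median centring, 0 with all probe sets, 3 without dim genes, 4 with the trended robust prior, 2 with array weights, and 0 to 8 with single arrays left out, the highest without the first progesterone array. SLC6A9 was called under 6 alternatives, SLC1A4 under 4, ATF4 under 3 and PSPH under 1. Fewer genes tested or fewer arrays are part of how some of these alternatives are built, and otherwise the cause was not tested.

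Replicate numbers share only a number in the labels. The differences between replicates 1 and 2 correlated across genes by 0.20 to 0.51 in the 6 pairs of groups, and the replicate block left the average RU-486 calls at 6, with 1 among the other pathway genes.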

Other observations

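Of the 10 astrocyte markers, 1 separated the same arrays as 5 of the 8 enzymes, on the higher side, against 4.51% of all genes. SLC1A3, the glial glutamate transporter, read 9.16 and 9.32 in progesterone plus RU-486 and 9.44 and 9.49 in RU-486, against 8.82 and 8.87 in progesterone and 8.92 and 8.95 in vehicle. It was higher by 0.46 on average with RU-486 than without (limma adjusted p = 0.112), a gene chosen after its values were seen, whereas the 10 astrocyte markers had a median of -0.02 with 3 above 0.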
